A study of Sus scrofa with 12 samples.

Results

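The genes described here are UDP-glucuronosyltransferase 2B31 (UGT2B31), LOC100516628 and LOC100515741, which lie beside it in the pig genome, and 4 enzymes that add sulfate to, reduce or oxidise steroids, namely SULT2A1, HSD17B2, HSD17B4 and SRD5A1. They are 7 of the 31694 genes listed in each mRNA file, and all 7 symbols were found. They were chosen by name after JH and LD values of the same livers had been seen, UGT2B31 for its large difference, so the breed differences of the 7 genes are a description. The fit over all genes that includes them is used to state their size and error, and whether they met its limits is not evidence. The samples were livers of 70-day-old uncastrated male pigs, 3 of the Chinese indigenous Jinhua breed (JH) and 3 of the Landrace breed (LD, the control), with 1 mRNA library per pig. The labels name no treatment, and each breed is represented by 3 animals.

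The liver ends the action of steroid hormones in several steps. Reductases and hydroxysteroid dehydrogenases change the steroid ring and its oxygen groups, and transferases then join glucuronic acid or sulfate to it, which makes it soluble enough to leave in bile or urine. UGT2B enzymes are known for glucuronidation of androgens and estrogens, and SULT2A1 for sulfation of dehydroepiandrosterone. In uncastrated male pigs some hepatic enzymes of these families also act on androstenone, a testicular steroid that contributes to boar taint.

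Expression was given as RPKM, read numbers scaled for gene length and library size, so levels can be compared between genes. The read total that scaled each library was recovered from the values and lay between 5744908 and 7914515. In each library it was below the number of clean reads that the paper gives. RN18S, a ribosomal RNA gene, was lowest in JH2 with 1570 RPKM and highest in JH3 with 62257 RPKM, and its part in the results was not tested. Hepatocyte transcripts were abundant in all 6 livers, and the summed RPKM of 6 hepatocyte markers was 55780 to 67820 in JH and 68910 to 83360 in LD. These markers shared no direction. ALB (means 29870 in JH and 47920 in LD) and TF (6831 and 13810) were lower in every JH pig. APOA1 (16220 and 8376) was higher in every JH pig, and TTR and HNF4A overlapped. APOB was listed at 0 in every library, so a listed 0 does not show that a gene is silent. Of 23 tested marker genes 4 (17.4%) were called, against 2.39% of all tested genes. These were EPCAM (bile duct), COL1A1 and COL3A1 (fibroblast) and HBB (erythroid), all lower in JH. In 10 of the 23 every JH value was below every LD value, and in 1 every JH value was above. Values lay apart in either direction in 23.4% of all tested genes. DCN, RGS5, STAB2, LYVE1 and ALAS2 were among the markers that overlapped between the breeds. The summed RPKM of the 3 bile duct markers listed was 1.55 to 2.13 in JH and 5.24 to 9.64 in LD, and that of 5 stellate and fibroblast markers was 44.3 to 68.3 in JH and 142 to 272 in LD. The sums of 4 endothelial markers were 40.8 to 41.5 and 54.6 to 60.0, and those of 2 erythroid markers 90.1 to 122 and 212 to 393. Macrophage (10.3 to 26.1 in JH, 9.43 to 15.0 in LD, with CD163 at 0) and lymphocyte sums (8.38 to 39.8 and 12.1 to 14.1) overlapped. The part of these markers in the results below was not tested, and in whole liver fewer cells of a type and less RNA per cell cannot be told apart.

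**Figure D1:**
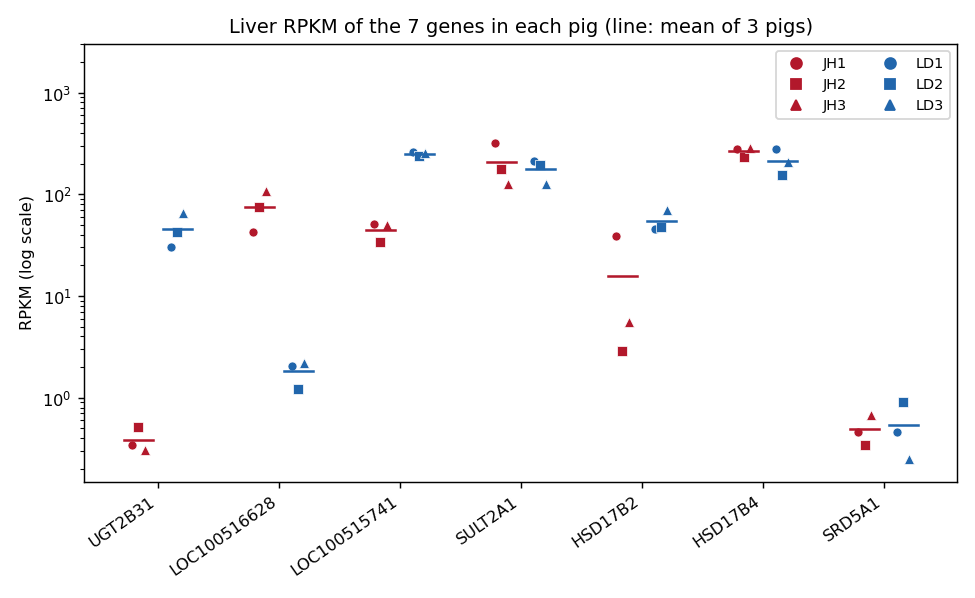
RPKM on a log axis of the 7 genes in each JH pig (red) and LD pig (blue), with a line at the mean of 3 pigs. UGT2B31 lies below 1 RPKM in JH and above 30 RPKM in LD, LOC100516628 lies the other way round, and SULT2A1, HSD17B4 and SRD5A1 overlap.

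UGT2B31 had few reads in JH liver and many in LD liver. Its RPKM was 0.346 in JH1, 0.512 in JH2 and 0.308 in JH3, against 30.1 in LD1, 42.4 in LD2 and 65.4 in LD3. All JH values lay far below all LD values, and the JH values rested on 5, 10 and 6 reads. The LD values rested on 539, 843 and 1304 reads. Averaged over the pigs of a breed, UGT2B31 reached 0.388 ± 0.109 RPKM (SD, n = 3) for JH and 46.0 ± 17.9 RPKM (SD, n = 3) for LD, a ratio of 118. The difference between JH and LD was -6.51 as log2 fold change (standard error 0.33) when log2(RPKM + 0.1) was fitted with limma for the 12993 genes that reached 0.5 RPKM in 3 or more libraries. Only 2 tested genes had a lower one. On this scale differences of low genes are understated, and with a pseudocount of 1 the log2 fold change was -5.01.

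LOC100516628 showed the opposite pattern in the same pigs. It stands 2 places from UGT2B31 in the RefSeq order of genes (assembly Sscrofa11.1), with 1 pseudogene between them, and the gene table used here gives it no product name. Its RPKM was 42.9 in JH1, 75.8 in JH2 and 108 in JH3, against 2.05 in LD1, 1.23 in LD2 and 2.18 in LD3. The lowest JH pig was far above the highest LD pig. These values stood for 457, 1091 and 1553 reads in JH and 27, 18 and 32 reads in LD. The JH mean of 75.6 ± 32.6 RPKM (SD, n = 3) was 41.6-fold the LD mean of 1.82 ± 0.515 RPKM (SD, n = 3), with a log2 fold change of 5.24 (standard error 0.37). Only 4 tested genes had a higher one.

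**Figure D2:**
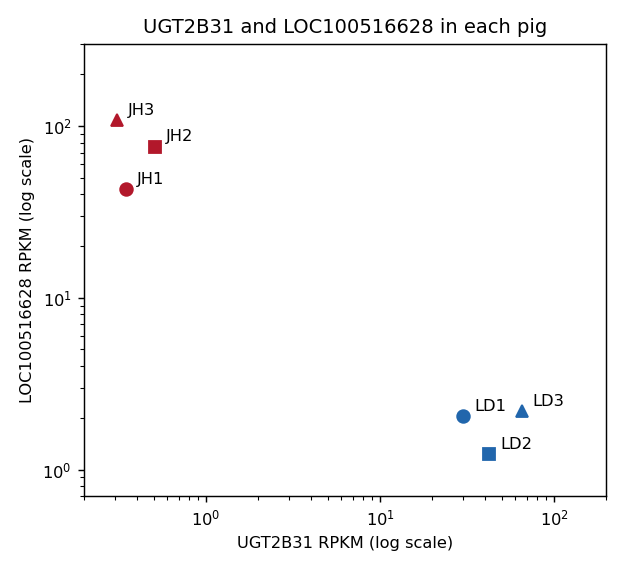
RPKM of LOC100516628 against RPKM of UGT2B31 in each pig, both on log axes. The 3 JH pigs lie at the upper left and the 3 LD pigs at the lower right, with no pig high in both genes.

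The gene of the pair with the higher RPKM therefore differed between the breeds in every pig. LOC100516628 exceeded UGT2B31 by 124-fold in JH1, 148-fold in JH2 and 351-fold in JH3, whereas UGT2B31 exceeded LOC100516628 by 14.7-fold in LD1, 34.5-fold in LD2 and 30.0-fold in LD3. The sum of both genes, a measure chosen after the values were seen, was 43.2, 76.3 and 108 RPKM in JH and 32.2, 43.6 and 67.6 RPKM in LD. The breeds overlapped in this sum, with means of 76.0 ± 32.6 RPKM (SD, n = 3) for JH and 47.8 ± 18.1 RPKM (SD, n = 3) for LD. UGT2B genes form a family of similar sequences. How reads shared between similar genes were counted is not given in the sources used here. The likeness of UGT2B31 and LOC100516628 was not measured. The level of each gene, and with it the opposite breed differences, is uncertain to that extent.

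LOC100515741, which stands 3 places from UGT2B31 on its other side and has no product name in the gene table either, was lower in JH. Its RPKM was 50.5, 33.9 and 50.04 in JH1 to JH3, against 261, 235 and 253 in LD1 to LD3. The LD pigs were nearly equal, with a coefficient of variation of 5.25%, and each of them was far above every JH pig. The means were 44.8 ± 9.49 RPKM (SD, n = 3) for JH and 249.7 ± 13.1 RPKM (SD, n = 3) for LD, with a log2 fold change of -2.50 (standard error 0.25). Counts of 426 to 628 reads in JH and 3006 to 3245 reads in LD stood behind these values.

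**Figure D3:**
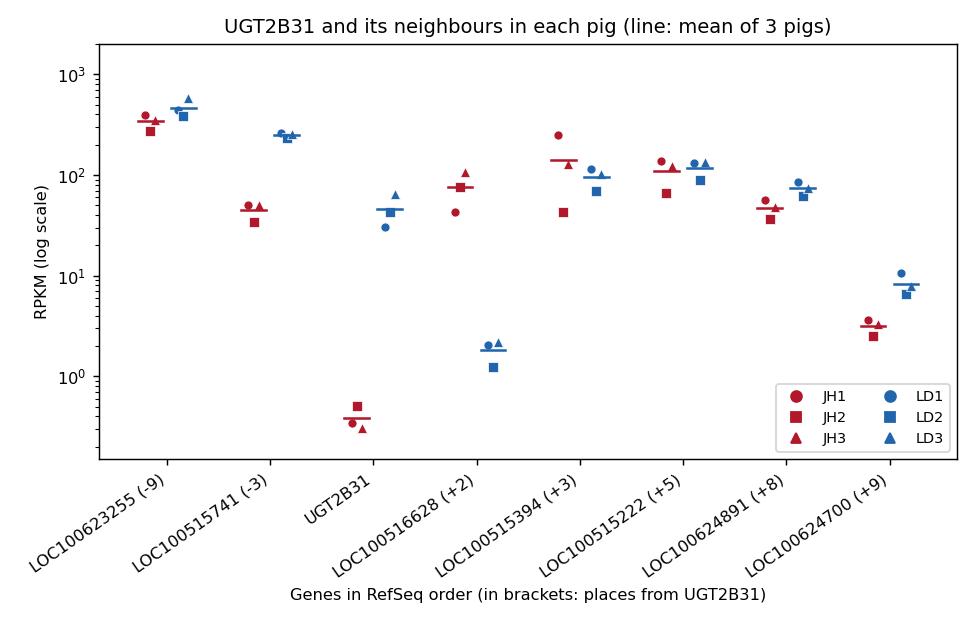
RPKM on a log axis of UGT2B31 and the neighbouring genes with a mean above 0.1 RPKM, in RefSeq order, in each JH pig (red) and LD pig (blue), with a line at the mean of 3 pigs. LOC100516628 is higher in JH, LOC100515741, UGT2B31, LOC100624891 and LOC100624700 are lower in JH in every pig, and the other 3 genes overlap.

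Among 7 tested neighbours of UGT2B31, 3 met the limits, and these include the members LOC100516628 and LOC100515741, which were chosen on this comparison. Of the 10 annotated genes on each side of UGT2B31, 10 were listed in the files and 7 were tested. Past an adjusted p of 0.05 and an absolute log2 fold change of 1, limits met by 2.39% of all tested genes, were LOC100516628, LOC100515741 and LOC100624700. The symbols UGT2B17 and UGT2A1 do not occur in this gene order, so their places relative to UGT2B31 were not determined. LOC100624700, 9 places away, averaged 3.14 ± 0.543 RPKM (SD, n = 3) for JH and 8.31 ± 2.02 RPKM (SD, n = 3) for LD, and its log2 fold change was -1.36 with a standard error of 0.27 and an adjusted p of 0.0408 (limma, Benjamini-Hochberg). It lost the call whichever of the 6 pigs was left out, with adjusted p between 0.0527 and 0.149, nor with no filter on low values (adjusted p = 0.0653). The next gene beyond LOC100516628, LOC100515394, did not pass (log2 fold change 0.25, standard error 0.55, adjusted p = 0.851), and its JH values ranged from 42.7 in JH2 to 250 in JH1. LOC100515222 and LOC100623255 also overlapped, with log2 fold changes of -0.17 and -0.45 (adjusted p = 0.83 and 0.415), and LOC100624891 reached -0.65 (adjusted p = 0.228) with its values apart. Leaving out UGT2B31 and both LOC members, the remaining 8 genes summed to 424 to 842 RPKM in JH and 612 to 895 RPKM in LD.

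**Figure D4:**
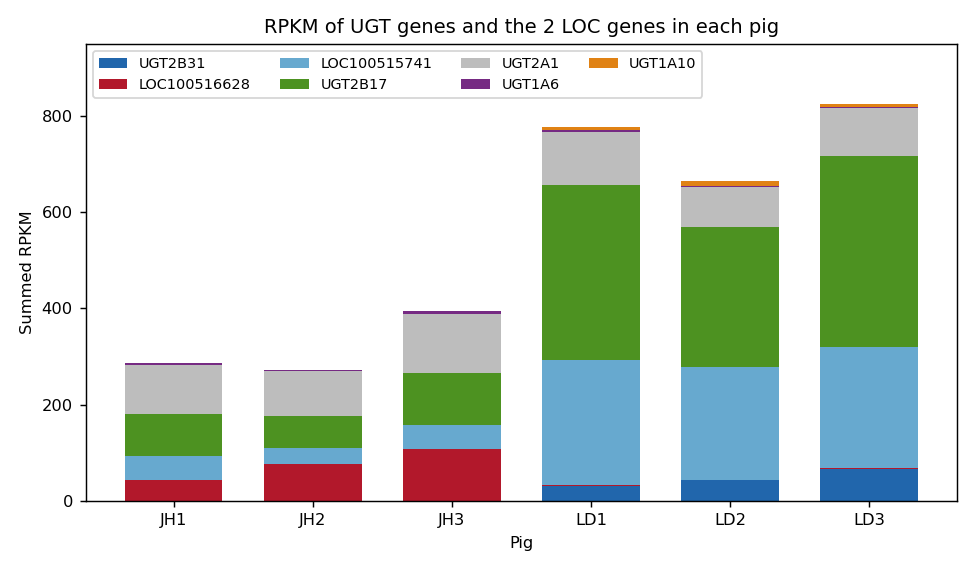
Summed RPKM of the listed UGT1 and UGT2 genes and of LOC100516628 and LOC100515741 in each pig, stacked by gene. UGT1A3 (0 in every pig) and UGT3A1 (at most 0.134 RPKM) are in the totals but too small to draw. The bars reach 271 to 395 RPKM in JH and 665 to 825 RPKM in LD.

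The summed level of the genes with a UGT symbol and both LOC members was lower in JH, with no overlap between the breeds. UGT2B17 and LOC100515741 held most of it in LD. UGT2B31 and both LOC members are part of the sum and were chosen on this comparison, so its difference is a description. Neighbours without a UGT symbol, such as LOC100623255 with a mean of 404 RPKM, were left out. The shares below depend on that choice. All rows with a symbol starting with UGT1, UGT2 or UGT3, together with both LOC members, summed to 287, 271 and 395 RPKM in JH1 to JH3 and to 777, 665 and 825 RPKM in LD1 to LD3. UGT2B31 took up 0.129% ± 0.0557 (SD, n = 3) of the JH sum and 6.06% ± 2.04 (SD, n = 3) of the LD sum. LOC100516628 took up 23.4% ± 7.33 (SD, n = 3) of the JH sum and 0.237% ± 0.0457 (SD, n = 3) of the LD sum. LOC100515741 accounted for 14.3% in JH and 33.2% in LD, and UGT2B17 for 27.3% and 46.2%. UGT2A1 was the largest part in JH, with 33.7%, and 12.9% in LD, while its level overlapped between the breeds, with means of 106 ± 15.0 RPKM (SD, n = 3) for JH and 97.6 ± 14.1 RPKM (SD, n = 3) for LD.

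SULT2A1, the hydroxysteroid sulfotransferase, was abundant in both breeds. Its RPKM was 322 in JH1, 176 in JH2 and 127 in JH3, against 211 in LD1, 193 in LD2 and 126 in LD3. The breeds overlapped, and JH1 stood highest. The log2 fold change was 0.16 (standard error 0.37), with a 95% confidence interval from -0.67 to 0.99, so neither a rise nor a fall in JH within these bounds was resolved. It turned to -0.21 without JH1 and to -0.07 without LD3.

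HSD17B2, which oxidises estradiol to estrone and testosterone to androstenedione, varied most among JH pigs. It was at 38.8 RPKM in JH1 but at 2.87 in JH2 and 5.57 in JH3, against 45.4, 48.0 and 69.3 in LD1 to LD3. JH1 lay just under the lowest LD pig, while JH2 and JH3 lay far below. The JH values stood for 150, 15 and 29 reads, and the highest was 13.5-fold the lowest, against 1.53-fold in LD. The log2 fold change was -2.62 with a standard error of 0.77, and it missed the limits. It was -3.70 without JH1, when it met them, and -1.85 without JH2. JH1 also had the lowest LOC100516628 and the highest SULT2A1 of the JH pigs.

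HSD17B4, a peroxisomal enzyme that oxidises 17-beta-hydroxysteroids and also acts in the beta-oxidation of fatty acids, was the most abundant of the 7 genes in JH. Its RPKM was 276, 232 and 283 in JH1 to JH3, against 281, 154 and 206 in LD1 to LD3. The ranges overlapped, with LD1 as high as the JH pigs. The log2 fold change was 0.34 (standard error 0.28, 95% confidence interval -0.28 to 0.96).

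SRD5A1, the steroid 5-alpha-reductase that converts testosterone to dihydrotestosterone, was barely detected. It was at 0.458, 0.339 and 0.681 RPKM in JH1 to JH3 and at 0.464, 0.917 and 0.250 RPKM in LD1 to LD3, values that rested on 3 to 11 reads per library. It did not reach the limit for low values and was not tested, and a difference was not detectable at this depth.

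Of the 7 genes 6 were tested and 3 met the limits. UGT2B31 and LOC100515741 were lower in JH, a direction met by 1.36% of all tested genes, and LOC100516628 was higher, a direction met by 1.02%. The 3 JH values lay apart from the 3 LD values in these genes and in HSD17B2, as they did in 23.4% of all tested genes. These shares describe the background, and nothing is read from them since the genes were chosen on the same comparison.

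The order of levels differed between the breeds. In JH it ran from HSD17B4 (263 ± 27.7 RPKM, SD, n = 3) through SULT2A1, LOC100516628, LOC100515741 and HSD17B2 to SRD5A1 and UGT2B31. In LD it ran from LOC100515741 through HSD17B4, SULT2A1, HSD17B2 and UGT2B31 to LOC100516628 and SRD5A1. Neighbours in the JH order overlapped over pigs except SULT2A1 with LOC100516628 and HSD17B2 with SRD5A1. In LD, HSD17B4 overlapped LOC100515741 and SULT2A1, HSD17B2 overlapped UGT2B31, and the other neighbours lay apart.

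Other genes of steroid inactivation were taken from lists by function. Of 98 genes 74 were listed, 14 of these were listed at 0 in all libraries, among them SULT1A1 and HSD11B1, and 52 were tested. In the same limma fit 5 of the 52 (9.62%) fell in JH and none rose, against 1.36% of all tested genes that were called lower in JH. The lists were chosen with earlier results known, so no enrichment was tested. The counts of each list below stand beside the same 1.36%, and nothing is read from them about a list. The median log2 fold change of the 52 genes was -0.10, against 0.04 for all tested genes.

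**Figure D5:**
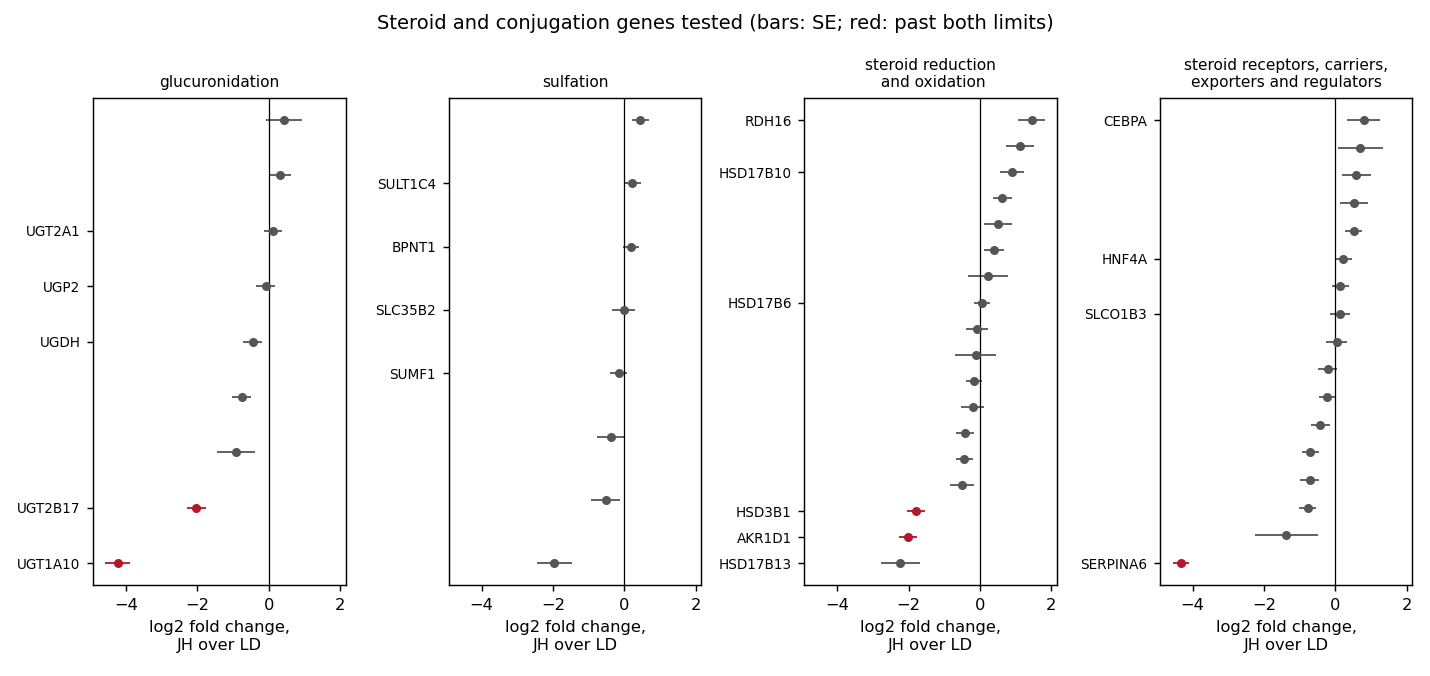
Log2 fold change of JH over LD (points) with its standard error (bars) for the 52 tested genes of 4 lists, with genes past both limits in red and names for these and the 4 most abundant genes of each list. The 5 red genes, UGT1A10, UGT2B17, AKR1D1, HSD3B1 and SERPINA6, all lie at or below -1.79.

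In glucuronidation, 2 of 9 tested genes fell in JH and none rose, with a list median of -0.45. UGT2B17, another androgen-conjugating enzyme, was at 86.1, 66.6 and 107 RPKM in JH and at 363, 291 and 397 RPKM in LD, or -2.03 as log2 fold change (standard error 0.26, adjusted p = 0.00751 from limma). Every JH pig was below every LD pig. UGT1A10 was at 0.348, 0.258 and 0.259 RPKM in JH, which is 2 reads per pig, and at 6.06, 11.3 and 5.44 RPKM in LD, or -4.24 as log2 fold change (standard error 0.36, adjusted p = 0.001 from limma). With a pseudocount of 1 its log2 fold change was -2.68. The other genes overlapped or missed the limits, including UGT2A1 (0.12, adjusted p = 0.829) UGP2, which makes UDP-glucose (-0.08, adjusted p = 0.903), and UGDH, which makes the UDP-glucuronic acid used in glucuronidation (-0.45, adjusted p = 0.425).

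In sulfation, none of 8 tested genes met the limits, with a list median of -0.08. SULT1C4 was the most abundant sulfotransferase of this list, with 39.9 and 33.4 RPKM as the breed means and a log2 fold change of 0.23 (adjusted p = 0.674). SUMF1, which activates sulfatases, was at -0.15 (adjusted p = 0.788), and SLC35B2, a Golgi carrier of the sulfate donor, at -0.02 (adjusted p = 0.985). PAPSS2, which makes the sulfate donor, was at -0.37 (adjusted p = 0.661). STS, the sulfatase that frees steroids from their sulfates, had its JH values of 0.148 to 0.419 RPKM apart from the LD values of 0.942 to 1.65 RPKM, and at -1.97 (standard error 0.49, adjusted p = 0.0808 from limma) it missed the limit.

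In steroid reduction and oxidation, 2 of 18 tested genes fell in JH and none rose, with a list median of -0.10. AKR1D1, the 5-beta-reductase of steroid hormones and bile acid precursors, was at 76.2, 52.8 and 78.8 RPKM in JH and 264, 276 and 285 RPKM in LD, or -2.01 as log2 fold change (standard error 0.25, adjusted p = 0.00578 from limma). HSD3B1, a 3-beta-hydroxysteroid dehydrogenase, was at 36.0, 45.3 and 30.4 RPKM in JH and 116, 144 and 124 RPKM in LD, with -1.79 (standard error 0.24, adjusted p = 0.0087 from limma). For both genes every JH pig was below every LD pig. HSD17B6, an oxidative hydroxysteroid dehydrogenase, averaged 455 ± 21.9 RPKM (SD, n = 3) for JH and 438 ± 52.7 RPKM (SD, n = 3) for LD and did not pass (0.06, adjusted p = 0.918). HSD17B13, a lipid droplet protein and the most abundant of the list over both breeds, was at 59.4 to 348 RPKM in JH and 610 to 854 RPKM in LD, and missed the limit at -2.23 (standard error 0.55, adjusted p = 0.0754 from limma). RDH16, a retinol and hydroxysteroid dehydrogenase, and HSD17B10, a mitochondrial one, had all JH values above all LD values and missed it as well, with log2 fold changes of 1.45 and 0.90 (adjusted p = 0.101 and 0.198 from limma).

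Among receptors, carriers, exporters and regulators, 1 of 17 tested genes fell in JH and none rose. This was SERPINA6, the plasma carrier of cortisol, at 17.3, 14.1 and 14.8 RPKM in JH and 312, 317 and 299 RPKM in LD, or -4.33 on the log2 scale (standard error 0.22, adjusted p = 3.23e-05 from limma). The list median was 0.04. SLCO1B3, an uptake carrier and the most abundant of the list, was at 0.13 (adjusted p = 0.849), and CEBPA, a transcription factor gene, at 0.79 (adjusted p = 0.393). HNF4A, a transcription factor of the hepatocyte, was at 0.22 (adjusted p = 0.682). Of 5 listed genes of gonadal and adrenal steroid synthesis none was tested, and CYP11A1, CYP17A1 and CYP19A1 were listed at 0 in every library.

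The genes most like each member were sought over the 6 libraries, by the root mean square distance between profiles of log2(RPKM + 0.1) centred on their own mean. The 5 nearest to UGT2B31 were LOC100628173 at 0.66, SCT at 0.76, LOC100622227 at 0.79, and LOC102163638 and LOC102165999 at 0.82, and in all 5 every JH value was below every LD value. The 5 nearest to LOC100516628 were MT1A at 0.63, LOC100522989 at 0.70, LOC100739719 at 0.71, MT-III at 0.84 and MYL7 at 0.88, all higher in JH. The directions of both sets follow from the choice of genes by distance and are no separate result. Nearest to LOC100515741 were SEC14L3 at 0.13, ITGB3 at 0.18, HRG and TMPRSS11D at 0.19, and SORCS1 at 0.22. HSD17B2 had no gene closer than LOC102159614 at 0.34, followed by LOC102167922, LOC102162264, MAPT and LOC102167293 up to 0.51. The nearest to SULT2A1 were LOC100621791 at 0.08, TSTD1 at 0.10, and FBXW4, TIGD2 and COQ6 at 0.11. The nearest to HSD17B4 were PECR at 0.05, GOSR1, SHOC2 and SLC35F5 at 0.09, and TMBIM4 at 0.11. Among the members themselves, UGT2B31 and LOC100516628 were farthest apart, at 5.90, and SULT2A1 and HSD17B4 closest, at 0.51.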

How the data were processed

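Liver mRNA of 3 JH and 3 LD pigs was sequenced as short single reads. The authors aligned them to Sus scrofa 10.2 with TopHat2 2.0.13 and used gfold for the number of reads on each gene, and the values deposited are RPKM, 1 file per library. The labels give breed and number. The p-values weigh the breed difference against the spread between these pigs. Anything else that the 3 pigs of a breed shared cannot be told apart from breed. Small RNA files were not used here.

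The total that each library's RPKM were divided by, a whole length per gene and the reads were recovered from the 6 digits printed, for 19396 of 19614 genes above 0 (98.9%), a procedure tested on simulated data. Reads are neither independent molecules nor biological replicates. They show how many counts a value rests on, and not the spread between pigs.

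JH was compared with LD by a linear model of log2(RPKM + 0.1) with moderated variances that follow the mean level (limma 3.58.1 under R 4.3.3, no covariate). Genes entered when 3 or more libraries reached 0.5 RPKM. This replaces the DEGseq test of the study, since the deposited values are RPKM. A gene was called when its Benjamini-Hochberg adjusted p over all 12993 tested genes was under 0.05 and its log2 fold change exceeded 1 in size. The fit was tested on simulated data.

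The members and lists were chosen with earlier results of these data known. Genes named are the members, list genes past the limits, up to 4 abundant genes per list (some list genes are not reported here), the 10 RefSeq neighbours on each side of UGT2B31 and the 5 nearest profiles of each member. STS and PAPSS2 were named after their values were seen. The gene order is that of Sscrofa11.1, so no coordinates are given. Alternatives were other pseudocounts, no filter, quantile normalization, median scaling, the replicate block, no fold change limit, each pig left out, and voom on the recovered reads, which was chosen after seeing the data. Python 3.11.15, pandas 2.3.3, numpy 2.4.6 and matplotlib 3.10.9 were used.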

Additional observations from a re-analysis of the deposited data

How the results depend on the processing

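UGT1A10, UGT2B17, AKR1D1, HSD3B1 and SERPINA6 stayed past the limits under all 14 alternatives. So did UGT2B31, LOC100516628 and LOC100515741, which is no support since they were chosen on this comparison. Among the alternatives, the setting with no fold change limit is the same fit with a looser limit, so it could not remove a call. With the replicate block the members called were 3, as without it, and all genes called were 253, of which 200 were among the 310 of the fit without it. The block changed no call among the members, the neighbours of UGT2B31 and the 5 called list genes. The deviations of JH and LD libraries of the same number from their breed means correlated at -0.02, 0.05 and 0.18, so the numbers were not treated as pairs. The calls over all genes were 310, against 199 with a pseudocount of 0.01 and 200 with no filter on low values. They were 340 with a pseudocount of 1, 398 under quantile normalization, 384 with median scaling and 409 with voom. With 1 pig left out they ran from 79 (without LD1) to 406 (without JH3). They were 164 without JH1, 150 without JH2, 114 without LD2 and 149 without LD3. The members called were 4 without JH1 and with voom on recovered reads, HSD17B2 being the one added (log2 fold change -3.70 and -2.72). Of the listed pathway genes, HSD17B13 was added under quantile normalization and without JH2 or JH3, RDH16 without LD3, and HSD17B13 and STS with voom. The cause was not tested. Depth limits SRD5A1, UGT1A10 in JH and UGT2B31 in JH, which rest on 11 reads or fewer per library.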
